A study of Rattus norvegicus with 13 samples.

Results

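Neurons and microglia from rat cortex were compared for the microRNAs (miRNAs) that 6 arrays detected, 3 of neurons and 3 of microglia. A miRNA entered the comparison when the scanner software called it detected on at least 3 of these 6 arrays, in any combination, which 256 of the 350 rat miRNAs on the array did. The 6 arrays are part of a series of 13 that also holds astrocytes and oligodendrocytes, which were used here for scaling and for the estimate of spread. Neurons were dissociated from cortical tissue of 1-day-old pups (postnatal day 1) and grown in Neurobasal medium with cytosine arabinoside, a drug that kills dividing cells and so removes glia. Microglia were the cells floating in the supernatant of mixed cortical cultures from rats of the same age, collected at day 7 in vitro according to the culture protocol, although the sample labels give day 10 for both types. No treatment, transgene or mutation is named for either type, and strain, sex and whether animals were pooled are not given in the sources used here. The series text calls the arrays of a type biological replicates. Each array received 100 ng of total RNA labelled with Cy3 in 1 colour. The miRNAs are named here as on the array, without the prefix rno-, and an asterisk marks the strand of a hairpin that was thought to be the minor one when the array was designed.

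A miRNA is a short RNA cut from a hairpin, and it represses messenger RNAs that pair with its seed, bases 2 to 8 from its 5′ end. miRNAs with the same seed can repress overlapping sets of messages even when they come from different genes, and neighbouring hairpins are often cut from a single primary transcript. Either arm of a hairpin may be kept as the mature miRNA. In the brain, miR-124, miR-9 and miR-128 are known as neuronal miRNAs, while miR-223, the miR-142 pair and miR-146a are known from myeloid cells, the lineage to which microglia belong.

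The mature sequences below are those on which the comparison turns, from RefSeq (build GRCr8), with the seed in capitals. The first set holds miRNAs with some of the highest differences in either direction, which have different seeds.
miR-9: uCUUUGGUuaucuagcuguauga
miR-128: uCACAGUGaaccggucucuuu
miR-125b-5p: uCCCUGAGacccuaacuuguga
let-7b: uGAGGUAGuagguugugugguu
miR-146a: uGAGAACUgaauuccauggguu
miR-142-3p: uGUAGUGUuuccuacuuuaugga
miR-223: uGUCAGUUugucaaauacccc
miR-21: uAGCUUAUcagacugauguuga

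The second set holds relatives that share a seed and differed between the cell types in opposite directions. Only their bases outside the capitals set these miRNAs apart. The relatives of miR-15 and miR-16 come first, then those of miR-130 and of miR-26. miR-322, which was not called, is shown beside its relatives.
miR-195: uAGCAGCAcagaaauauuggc
miR-497: cAGCAGCAcacugugguuugua
miR-15b: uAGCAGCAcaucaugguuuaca
miR-16: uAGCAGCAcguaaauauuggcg
miR-322: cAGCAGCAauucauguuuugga
miR-130a: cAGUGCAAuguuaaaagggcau
miR-130b: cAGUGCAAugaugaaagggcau
miR-301b: cAGUGCAAugguauugucaaagc
miR-26a: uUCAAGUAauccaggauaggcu
miR-26b: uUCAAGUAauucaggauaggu

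The third set holds both arms of the hairpins whose arms differed in opposite directions and were both detected on all 6 arrays.
miR-99b: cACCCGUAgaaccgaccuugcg
miR-99b*: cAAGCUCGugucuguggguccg
miR-125a-5p: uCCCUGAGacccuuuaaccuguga
miR-125a-3p: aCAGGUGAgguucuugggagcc

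Brightness differed between the types in ways that touch every value given here. Summed over miRNAs, intensity ranged over 276438 to 514270 for neurons and over 128614 to 160446 for microglia. Each neuron array had 241 to 258 miRNAs called detected, and each microglia array 160 to 176. Neuron arrays correlated at 0.997 to 0.998 with each other across miRNAs and microglia arrays at 0.971 to 0.986, against 0.430 to 0.462 between the types. These correlations are across miRNAs, which are not independent replicates. No miRNA spot was saturated on the 6 arrays. The neuron arrays lay on one slide and the microglia arrays on another, so that slide and cell type cannot be told apart in any difference reported here.

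The markers of each label were detected on its own arrays, and some of them also on those of the other type. All 4 neuron markers (miR-124, miR-9, miR-128 and miR-137) were detected on every neuron array, and the log2 of their levels summed on the linear scale was 5.18 to 5.26 on neuron arrays and -3.46 to -2.36 on microglia arrays. Among microglia, miR-124 and miR-137 were detected on no array, while miR-9 and miR-128 were detected on all 3. On neuron arrays miR-9 led the sum, with a mean of 4.22. It was also high in astrocytes and oligodendrocytes, as given below, so the sum was not taken to set neurons apart from those types. The 4 myeloid markers (miR-142-3p, miR-142-5p, miR-223 and miR-146a) were all detected on every microglia array, with a log2 summed level of -5.38 to -5.11 on neuron arrays and 4.74 to 4.93 on microglia arrays. miR-223 was detected on all 3 neuron arrays and miR-142-5p on none. Of 4 miRNAs taken as astrocyte markers, miR-143 and miR-31 were detected on none of the 6 arrays, and the log2 summed level of the 4, at -0.76 to -0.73 on neuron arrays and 4.25 to 5.45 on microglia arrays, followed miR-21. The fourth, miR-449a, was detected on all 6 arrays and went the other way, with means of -3.72 in neurons and -4.78 in microglia. The 5 epithelial miR-200 family members were all undetected in neurons, and 2 of them were detected in microglia. The log2 summed level of the oligodendrocyte markers was -0.54 to -0.40 on neuron arrays and -2.79 to -2.28 on microglia arrays. Of these markers, miR-219-2-3p was detected on 1 neuron array and no microglia array, with means of -7.64 and -7.61. Endothelial markers summed to -5.22 to -5.00 on neuron arrays and -2.67 to -2.07 on microglia arrays. The sums were -2.52 to -2.47 and -4.38 to -3.98 for ciliated ependyma. They were -4.90 to -4.63 and -5.93 to -5.30 for mesenchymal cells, and -4.59 to -4.36 and -5.79 to -4.89 for erythroid cells. Whether RNA of other cells in the cultures contributed to single differences was not tested.

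Levels are log2 values relative to a reference brightness of each array, so that 0 is the 75th percentile of the 119 miRNAs that every one of the 13 arrays detected, and values below -8.04 were set to -8.04. Differences are neurons minus microglia on that log2 scale, with their standard error (SE) or 95% confidence interval from limma, a linear model fitted over the 13 arrays with 268 tested miRNAs. A miRNA was called when its p-value, adjusted by the method of Benjamini and Hochberg over the 268, was under 0.05. Levels of different miRNAs cannot be ranked, since each depends on its probes, and only differences within a miRNA are compared.

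Of the 256 miRNAs, 138 were detected on all 6 arrays, 77 on the 3 neuron arrays and no microglia array, 7 on the 3 microglia arrays and no neuron array, and 34 on only some arrays of a type. The 138 are the fairer base for counts, since entry through the arrays of only one type favours a difference toward that type. Among the 138, 57 were called higher in neurons, 59 were called lower and 22 were not called. Over all 268 tested miRNAs, 83.2% were called in either direction, 52.2% higher and 31.0% lower in neurons. A call was thus the common outcome, and the counts for lists, seeds and clusters below are to be read against these shares. At least a 2-fold difference was found for 38 of the higher and 43 of the lower miRNAs, against 67.9% called at this size in either direction over all tested. The arrays of the types did not overlap for 55 of the 57 and all 59 of the lower, and 83.2% of all tested miRNAs did not overlap. The differences of the 138 ran from -8.63 to 9.63 with a median of -0.18. The 119 miRNAs that set the scale are all among the 138, so this median and the balance of calls depend on the scaling.

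**Figure D1:**
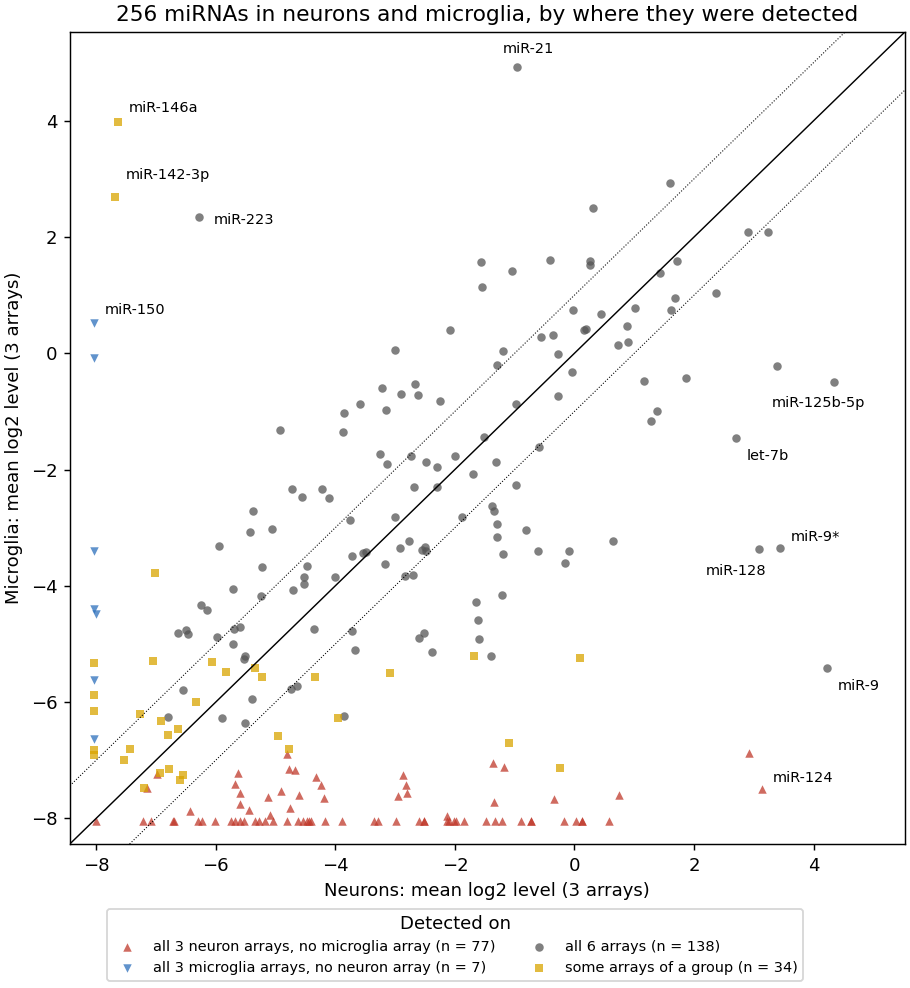
Mean log2 level of each of the 256 miRNAs on 3 neuron arrays (x axis) and 3 microglia arrays (y axis), with shapes for where it was detected. The solid line marks equal levels and the dotted lines a difference of 1 in log2, and the 77 triangles along the bottom edge were detected on no microglia array.

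Among the miRNAs found on all 6 arrays, the brain miRNAs miR-9, miR-9* and miR-128 stood furthest toward neurons, followed by miR-125b-5p, 3 let-7 miRNAs, miR-181c, miR-125a-5p and miR-218. miR-9, which acts in neural progenitors and neurons, had levels of 4.20, 4.18 and 4.27 on the neuron arrays, against -5.43, -5.48 and -5.33 on the microglia arrays. It was higher in neurons by 9.63 (SE 0.06), 793-fold, with an adjusted p of 1.414e-16 (limma). Its other strand miR-9* had 3.49, 3.44 and 3.40 in neurons, against -3.01, -2.84 and -4.18 in microglia, a difference of 6.79 (SE 0.27, adjusted p 4.966e-10). All neuron arrays lay above all microglia arrays for both strands, and the microglia arrays were further apart for miR-9* than for miR-9.

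miR-128, a miRNA enriched in postmitotic neurons, had 3.03, 3.13 and 3.13 in neurons, against -2.64, -4.09 and -3.38 in microglia. The difference was 6.46 (SE 0.29, adjusted p 1.679e-09), with neuron arrays close together and microglia arrays spread over -4.09 to -2.64. miR-125b-5p, known in neurons and astrocytes, had 4.33, 4.31 and 4.36 in neurons, against -0.65, -0.37 and -0.45 in microglia, 28.4-fold higher (4.83, SE 0.18, adjusted p 4.103e-10). miR-218, known from motor neurons, had -1.63, -1.57 and -1.58 in neurons, against -4.61, -5.70 and -4.44 in microglia, a difference of 3.32 (SE 0.25). miR-181c had a difference of 3.82 (SE 0.22) and miR-125a-5p one of 3.44 (SE 0.17), again with no overlap between the arrays of the types. These miRNAs kept their call when the arrays were scaled in 5 other ways.

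let-7 miRNAs, which accumulate as cells stop dividing and differentiate, were represented by 8 miRNAs with the seed GAGGUAG, all detected on all 6 arrays. All 8 were higher in neurons, between 0.70 (let-7d) and 4.17 (let-7b), with a median of 1.22. let-7b had 2.62, 2.71 and 2.79 in neurons, against -1.69, -1.28 and -1.41 in microglia, a difference of 4.17 (SE 0.10) with no overlap. let-7a had 3.04, 3.31 and 3.34 in neurons and 2.02, 2.06 and 2.19 in microglia, a difference of only 1.14 (SE 0.08). let-7b, let-7c and let-7e (3.88, SE 0.24) kept their call under all scalings, but 3 of the 8 were called higher and 1, let-7d, lower when the percentile was taken over all miRNAs. The let-7 sequences differ by few bases, and whether their probes bind one another's targets was not tested.

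miR-99 and miR-125 relatives often lie beside let-7 genes, and all 5 of the list of miR-99a, miR-99b, miR-100, miR-125a-5p and miR-125b-5p were higher in neurons under every scaling. Their median difference was 3.32. miR-100 had a difference of 3.32 (SE 0.12), miR-99b of 2.98 (SE 0.21) and miR-99a of 2.31 (SE 0.06). The miR-181 family was higher in all 4 members, by 1.37 (miR-181b) to 3.82 (miR-181c), with miR-181a at 2.38 (SE 0.14) and miR-181d at 2.77 (SE 0.21). miR-181b was not called under 3 of the other scalings.

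**Figure D2:**
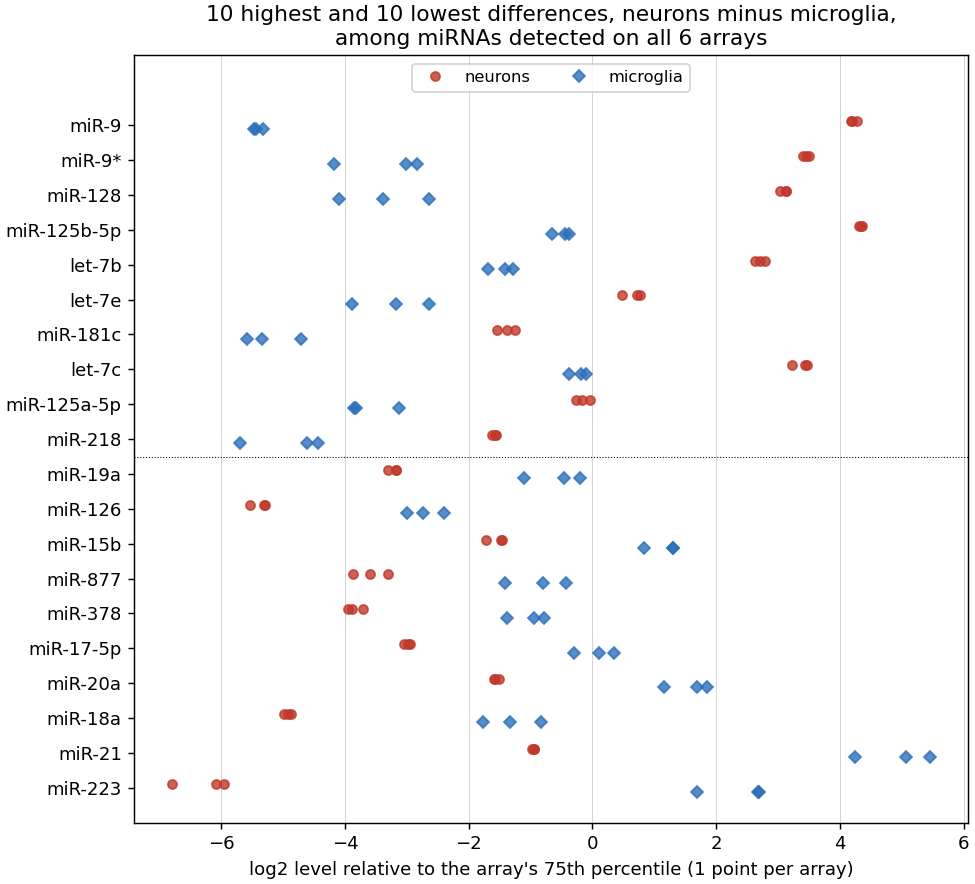
log2 level on each array of the 10 miRNAs with the highest and the 10 with the lowest difference between neurons (circles) and microglia (diamonds), among the 138 detected on all 6 arrays. In each row the 3 circles and the 3 diamonds do not overlap, and the diamonds have the wider spread in each row (SD).

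On the other side, miR-223 and miR-21 stood apart, followed by members of the miR-17 cluster, miR-378, miR-877, miR-15b and miR-126. miR-223, which is made by myeloid cells and restrains their inflammatory activity, had -5.95, -6.79 and -6.09 in neurons, against 2.69, 1.70 and 2.67 in microglia. It was 395-fold lower in neurons (-8.63, SE 0.41, adjusted p 2.607e-09), with both groups of arrays far apart. miR-21, a miRNA that promotes growth and survival and is also abundant in astrocytes, had -0.95, -0.97 and -0.94 in neurons, against 5.07, 4.25 and 5.45 in microglia. It was 58.8-fold lower in neurons (-5.88, SE 0.28, adjusted p 2.993e-09), and its mean was 4.27 in astrocytes and 1.82 in oligodendrocytes.

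The miR-17 cluster, which ends with miR-92a, drives proliferation, and its mature miRNAs were lower in neurons throughout. miR-18a had -4.87, -4.99 and -4.93 in neurons, against -0.83, -1.77 and -1.34 in microglia, a difference of -3.62 (SE 0.18, adjusted p 3.935e-09). miR-20a had a difference of -3.12 (SE 0.14), miR-17-5p of -3.04 (SE 0.14), miR-19a of -2.63 (SE 0.18), miR-92a of -2.48 (SE 0.14) and miR-19b of -2.00 (SE 0.13). In this list with its paralogs, 13 of 14 members were lower in neurons and 1, miR-92b, was higher, and 9 of 9 of those detected on all 6 arrays were lower, with a median of -2.48. Without scaling 10 of the 14 remained lower and 1 was higher. The paralogs miR-93 (-1.90, SE 0.09), miR-25 (-1.43, SE 0.08) and miR-106b (-1.09, SE 0.12) differed less.

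miR-378 had a difference of -2.81 (SE 0.18), miR-877 of -2.71 (SE 0.24) and miR-126 of -2.67 (SE 0.20), all without overlap between types. miR-126 is best known from endothelial cells, and it had -5.54, -5.30 and -5.30 in neurons, against -2.99, -2.41 and -2.74 in microglia. Its other strand miR-126* was detected on 2 microglia arrays and no neuron array.

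Among the 77 miRNAs detected only on neuron arrays, 74 were called, all of them higher, and 3 were not called. The way they entered favours this direction without fixing it. Because microglia gave only a limit for them, their folds are lower bounds. Each is set against the mean over the microglia arrays of the array's lowest detected signal or the miRNA's own signal, whichever was higher. miR-124, a neuronal miRNA that represses non-neuronal messages, had 3.33, 2.95 and 3.12 in neurons, and was not well above background on any microglia array (measured means 3.13 ± 0.19 and -7.49 ± 0.49, SD, n = 3 each). It was at least 1076-fold higher in neurons. miR-129* was at least 735-fold higher, miR-434 at least 236-fold, miR-137 at least 209-fold, miR-129 and miR-127 at least 153-fold each, miR-136 at least 142-fold and miR-376a at least 124-fold. Of the 77, 67 had a bound of at least 2-fold.

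miR-434, miR-127, miR-136 and miR-376a belong to the Dlk1-Dio3 domain, an imprinted stretch of rat chromosome 6 that holds many miRNA genes and is active in brain. Of its 41 members here, 39 were higher in neurons, 0 lower and 2 were not called, with 37 of the 41 detected only on neuron arrays. Only 3 were detected on all 6 arrays. Of these miR-487b had -2.42, -2.58 and -2.57 in neurons, against -4.69, -4.87 and -4.89 in microglia (2.29, SE 0.12), and miR-494 had a difference of 1.63 (SE 0.34). miR-134, which limits dendritic spine size in rat hippocampal neurons, was not called, with -3.48, -3.92 and -3.75 in neurons and -3.76, -3.42 and -3.26 in microglia, a difference of -0.24 (95% interval -0.78 to 0.31). With normexp background correction, 21 of the 41 were higher and 2 lower.

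Of the 21 members of the neuron-associated list, 19 were higher and 2, miR-134 and miR-212, were not called. Over all tested miRNAs 52.2% were higher, and 11 of the 21 were detected only on neuron arrays, which favoured that direction. Among the 9 detected on all 6 arrays, 7 were higher. miR-132 and miR-212 are cut from one transcript that responds to neuronal activity, and they did not move alike. miR-132 had 0.18, 0.07 and 0.05 in neurons, against -6.97, -3.12 and -5.64 in microglia, where 1 of 3 arrays detected it (5.34, SE 0.80, adjusted p 6.826e-05). miR-212 had -2.11, -2.36 and -2.42 in neurons and -1.84, -1.94 and -2.11 in microglia, a difference of -0.33 with an adjusted p of 0.0605 (limma), and under 6 of the 7 other ways of scaling or summarising in which families were counted its adjusted p was under 0.05 with the lower level in neurons. miR-153 was at least 84.9-fold higher in neurons, miR-138 at least 47.8-fold, miR-139-5p at least 14.3-fold, miR-383 at least 6.31-fold, miR-7b at least 5.61-fold and miR-330* at least 3.44-fold. With normexp miR-383 was not called, and miR-7b and miR-330* turned sign (-0.13 and -0.27). miR-7a, detected on all 6 arrays, was higher by 1.25 (SE 0.33), but it was not called under 3 other scalings.

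Among the 7 miRNAs detected only on microglia arrays, all were lower in neurons, the direction that the way they entered favours. miR-150, known from mature lymphocytes and monocytes, was not well above background in neurons. It had 0.94, -0.14 and 0.77 in microglia, where it was at least 378-fold higher. miR-142-5p was at least 249-fold higher in microglia, miR-200c at least 24.9-fold, miR-141 at least 12.5-fold, miR-378* at least 11.5-fold, miR-21* at least 5.35-fold and miR-20b-5p at least 2.65-fold. miR-20b-5p was not called when values were floored at the 5th percentile (-0.17). miR-200c and miR-141 are epithelial miRNAs that come from one locus, and astrocytes and oligodendrocytes had both at the lowest value of -8.04. The 3 other epithelial family members were not detected on any of the 6 arrays.

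miR-146a, which dampens inflammatory signalling, and miR-142-3p, a blood cell miRNA, were each detected on 1 of 3 neuron arrays. miR-146a had -7.87, -7.40 and -7.65 in neurons, against 3.85, 4.14 and 3.97 in microglia, a difference of -11.62 (SE 0.32, adjusted p 1.781e-11). miR-142-3p had -7.77, -7.60 and -7.70 in neurons, against 2.87, 2.27 and 2.91 in microglia, a difference of -10.37 (SE 0.24, adjusted p 5.349e-12). Their neuron levels lie near the lowest value and their folds are therefore uncertain in size. In the myeloid-associated list of 10 members, 9 were lower and 1 was higher in neurons. miR-146b (-1.89, SE 0.08), miR-342-3p (-0.85, SE 0.11) and miR-342-5p (-0.70, SE 0.19) were lower with smaller differences than miR-223. The exception was the erythroid miR-451, at -4.72, -4.73 and -4.47 in neurons and -5.95, -6.13 and -5.06 in microglia (1.08, SE 0.22), and its sign turned under 4 other settings.

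Of the 256 miRNAs, 199 could be matched by name to a RefSeq mature sequence, and 26 seeds were shared by at least 2 of them. Under 6 of these seeds every member was higher in neurons and under 7 every member was lower. Members were called in both directions under 7 seeds, shown in the plot of seed relatives. That number was 6 with normexp, 4 without scaling, and 9 after quantile normalization or in the deposited table. The seed AGCAGCA separated most widely. miR-195 had -1.30, -1.14 and -1.18 in neurons, against -4.25, -3.83 and -4.37 in microglia, a difference of 2.95 (SE 0.24, adjusted p 3.711e-07). Its relative miR-15b had -1.72, -1.48 and -1.46 in neurons, against 1.30, 0.83 and 1.30 in microglia, a difference of -2.69 (SE 0.12, adjusted p 2.083e-09). Neuron arrays were thus all above the microglia arrays for miR-195 and all below them for miR-15b.

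miR-16 followed miR-15b (-1.34, SE 0.07) and miR-497 followed miR-195 (5.61, SE 0.39), although only 1 of 3 microglia arrays detected miR-497. miR-322 was not called at -0.23 (95% interval -0.54 to 0.07). The array's rn4 coordinates place miR-15b and miR-16 together at chr2:158992255-158992420 and miR-497 and miR-195 together at chr10:57073849-57074204. miR-195 and miR-497 were called higher and miR-15b lower under each of 7 other ways of scaling or summarising, while miR-16 was lower under all except no scaling.

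The seed AGUGCAA split in the same fashion. miR-130a had 1.37, 1.25 and 1.20 in neurons, against -0.91, -1.28 and -1.33 in microglia, a difference of 2.45 (SE 0.10, adjusted p 8.499e-10). miR-130b had -4.96, -5.12 and -5.12 in neurons, against -2.57, -3.76 and -2.74 in microglia, a difference of -2.04 (SE 0.42, adjusted p 7.717e-04). miR-301b, its neighbour at chr11:85885295-85885666 (rn4), was lower as well (-1.88, SE 0.23), with all neuron arrays at the lowest value. These 3 calls held under all 7 other settings.

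miR-26a was higher in neurons (1.34, SE 0.09) and miR-26b lower (-0.67, SE 0.08), with no overlap for either, but miR-26a lost its call when the percentile was taken over all miRNAs, and miR-26b turned sign without scaling. Of the seed GGCAGUG, miR-34a was lower (-1.26, SE 0.09), while miR-34b (2.31, SE 0.10) and miR-449a (1.06, SE 0.23) were higher. miR-34c, detected on no microglia array, was at least 4.07-fold higher. miR-449a turned sign under 4 settings and miR-34c with normexp, where miR-34b was not called, and miR-34a was not called without scaling. Of the seed AUUGCAC, miR-25, miR-32 (-1.65, SE 0.16) and miR-92a were lower and miR-92b was higher. No microglia array detected miR-92b, which was at least 2.69-fold higher in neurons, and it was not called under 4 of the 7 settings, with its sign turned under normexp. miR-107 (0.23, SE 0.06) and miR-103 (-0.24, SE 0.07) differed by 1.17-fold and 1.18-fold, and their calls depended on scaling. miR-99a* was higher (2.38, SE 0.19) and miR-99b* lower (-2.63, SE 0.26), but the probes of miR-99a* ran from -0.11 to 2.43 and so differed in sign.

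**Figure D3:**
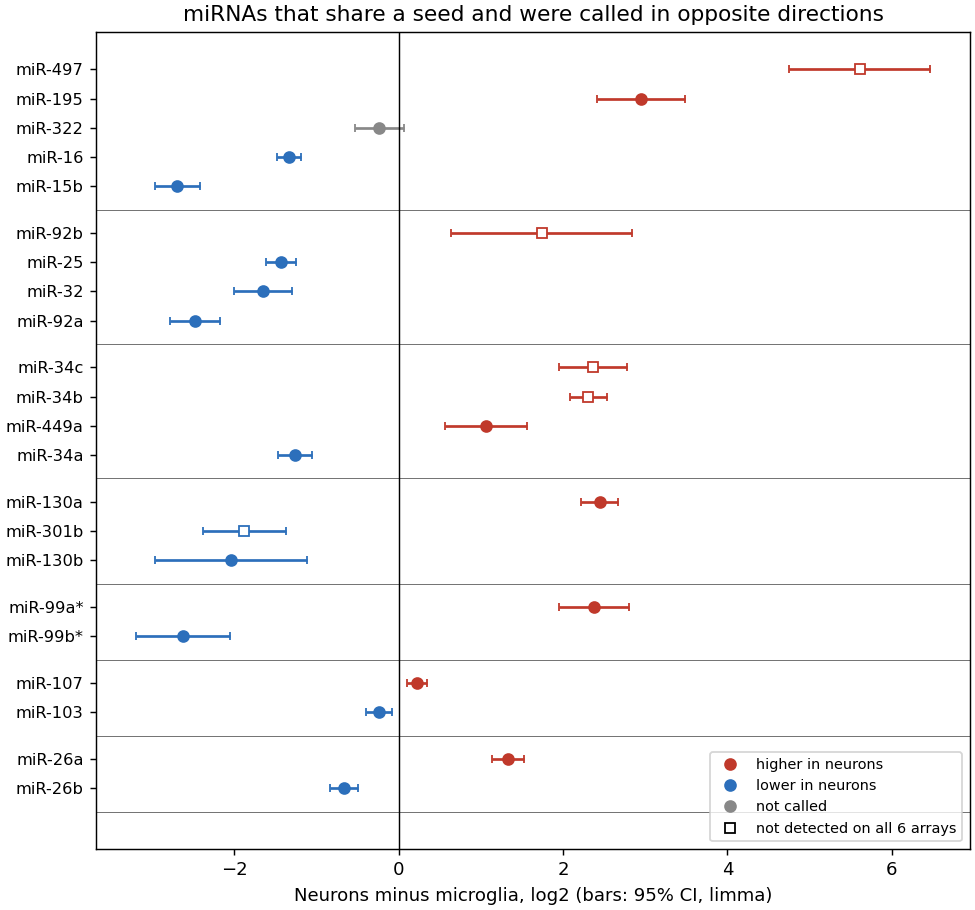
Difference between neurons and microglia with its 95% confidence interval (limma) for the 22 miRNAs in the 7 groups that share a seed and hold calls in both directions. Red marks lie to the right of 0 (higher in neurons), blue marks to the left, and open squares were not detected on all 6 arrays. For miR-34c and miR-92b the microglia signal was not well above background.

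Of the 256 miRNAs, 249 had 1 rn4 position in the array files. Of these, 121 lay in 28 clusters, runs of miRNAs from at least 2 hairpins with gaps of up to 10 kb. Some of them, such as miR-92a and let-7a, have 2 loci in RefSeq, so their values are not specific to the cluster. In 10 clusters every miRNA was higher in neurons and in 8 every one was lower, and in 2 there were calls in both directions. In 5 of the 10 and 1 of the 8 no miRNA was detected on all 6 arrays, so that the way their miRNAs entered favoured the shared direction. The clusters lower throughout were led by the miR-17 cluster at chr15:99853755-99854509, with 8 of 8 lower from -3.62 to -2.00. They also included miR-25 with miR-93 and miR-106b at chr12:17607981-17608448 (4 of 4), and miR-24 with miR-27b and miR-23b at chr17:7350974-7351724 (3 of 3). The clusters higher throughout included miR-99a with let-7c at chr11:16397558-16398300 (3 of 3) and miR-181c with miR-181d at chr19:25667410-25667599 (2 of 2). In the Dlk1-Dio3 domain, 7 of 7 were higher at chr6:134176812-134187046 and 30 of 32 at chr6:134388218-134425147, with the other 2 not called. These counts moved with the processing. There were 6 clusters all higher and 10 all lower when the percentile was taken over all miRNAs, 13 and 4 without scaling, and 3 and 10 with normexp. Clusters with calls in both directions numbered 7 with normexp and 7 in the deposited table, 5 after quantile normalization, 4 without scaling and 4 with the percentile over all miRNAs.

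**Figure D4:**
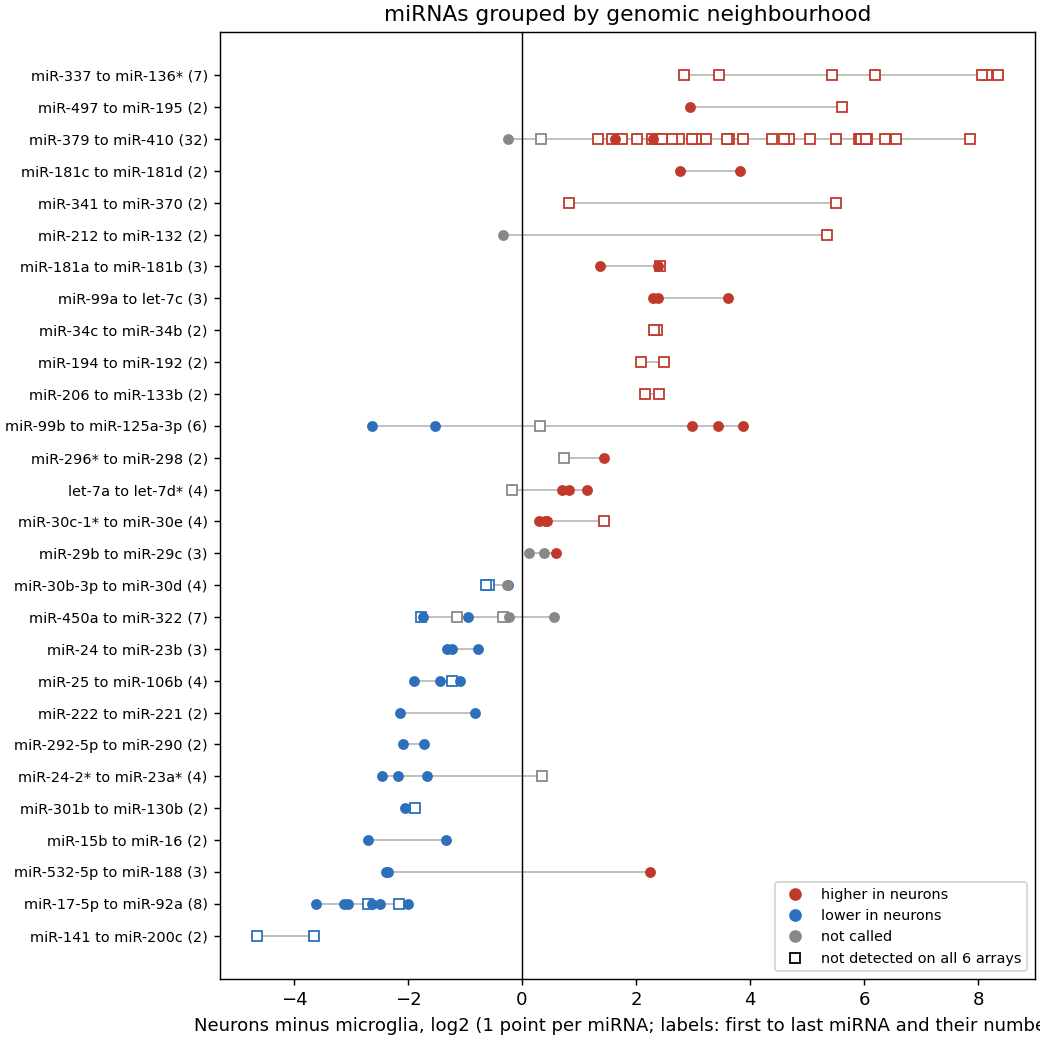
Differences between neurons and microglia for the 121 miRNAs in 28 genomic clusters, 1 row per cluster, ordered by the cluster's median. Most rows lie on one side of 0, and the rows of miR-99b to miR-125a-3p and of miR-532-5p to miR-188 have called miRNAs on both sides.

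In the cluster at chr1:56486981-56487653 the 3 main arms were higher, while 2 of the other arms were lower and 1 was not called. miR-99b had -1.48, -1.69 and -1.65 in neurons, against -4.54, -4.06 and -5.17 in microglia, while miR-99b* had -5.68, -6.04 and -6.12 in neurons, against -3.98, -2.85 and -3.14 in microglia. Both differences left no overlap, at 2.98 (adjusted p 1.075e-07) and -2.63 (adjusted p 1.858e-06). miR-125a-5p was higher by 3.44, and miR-125a-3p had -3.04, -3.56 and -3.16 in neurons, against -2.47, -1.13 and -1.59 in microglia (-1.52, SE 0.28, adjusted p 3.556e-04). Without scaling miR-125a-3p was not called (-0.56, adjusted p 0.139), and miR-99b* kept its direction and call under all 7 settings. let-7e lay between them and was higher by 3.88, while let-7e*, detected on neuron arrays only, was not called (0.32, SE 0.37). Its call depended on the setting: it was higher in neurons without microglia array 3 (0.89) and without scaling (1.09), and lower with normexp (-0.54).

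Of 57 pairs with both arms of a hairpin among the 256, 34 were called in the same direction, 3 in opposite directions, and 20 had at least 1 arm not called. In 13 of the 34 both arms were detected only on neuron arrays, which favoured a shared direction. Of the 18 pairs with both arms detected on all 6 arrays, 10 were called in the same direction, 2 in opposite directions, and 6 had at least 1 arm not called. The third opposite pair was miR-138, at least 47.8-fold higher in neurons, and miR-138*, with -6.68, -7.04 and -7.34 in neurons, against -4.42, -3.77 and -3.14 in microglia (-3.24, SE 0.30, adjusted p 1.302e-06). miR-138* was detected on 2 of 3 neuron arrays. These 3 pairs stayed opposite and called under 6 of 7 other settings, and the exception was miR-125a without scaling, but under normexp 15 pairs in all were opposite and 20 went together, and 10 were opposite in the deposited table.

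The other mixed cluster lay at chrX:27323161-27323577, where miR-532 and miR-188 hairpins are less than 1 kb apart. miR-532-5p had -4.63, -4.70 and -4.83 in neurons, against -2.29, -2.52 and -2.21 in microglia (-2.38, SE 0.09, adjusted p 3.356e-10), and miR-532-3p was lower by a like amount (-2.35, SE 0.21). miR-188 had -0.90, -1.40 and -1.30 in neurons, against -3.78, -3.14 and -3.42 in microglia (2.25, SE 0.34, adjusted p 7.655e-05). All 3 calls held under the 7 other settings. This cluster was picked after its values were seen.

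Other families were lower in neurons or had no single direction. The list of miR-23, miR-27 and miR-24 had 6 of 7 members lower and 1 not called, with miR-27a at -2.46 (SE 0.11), miR-23a at -2.18 (SE 0.09), miR-24 at -1.32 (SE 0.05), miR-27b at -1.23 (SE 0.14) and miR-23b at -0.77 (SE 0.15). Without scaling only 2 of the 7 were lower, and 1 was higher. miR-221 and miR-222, which act on cell cycle inhibitors, were both lower, at -2.14 (SE 0.38) and -0.82 (SE 0.33), but miR-222 lost its call when either neuron array 2 or 3, or microglia array 1 or 3, was left out, with adjusted p of 0.0777 to 0.128 (limma). The list of miR-15, miR-16 and relatives had 2 higher, 3 lower and 1 not called. The list of miR-130 and miR-301 had 1 higher, 2 lower and 1 not called, and that of miR-34 and miR-449 had 3 higher and 1 lower. The list of miR-26, and that of miR-103 and miR-107, each had 1 higher and 1 lower. The cluster of miR-322, miR-503 and miR-450a on chromosome X had 3 lower and 4 not called, among them miR-450a at -1.76 (SE 0.16) and miR-322* at 0.56 (95% interval -0.06 to 1.17). With normexp 7 of the 7 were lower, and 6 with the percentile over all miRNAs, after quantile normalization or in the deposited table, while without scaling 1 was lower and 1 higher.

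miRNAs linked to other cell types were divided. Of 12 astrocyte-associated members 5 were higher in neurons, 6 lower and 1 was not called, against 1 higher and 9 lower when the percentile was taken over all miRNAs and 6 and 3 without scaling. Of 6 oligodendrocyte-associated members 3 were higher, 2 lower and 1 not called. The lowest difference of this list was that of miR-23a (-2.18). miR-219-5p, which promotes oligodendrocyte maturation, was higher in neurons (2.62, SE 0.28), as was miR-338 (1.86, SE 0.22). Oligodendrocytes themselves had means of 1.88 for miR-219-5p and 2.53 for miR-338, above the neuron means of -1.65 and -1.29. Among 4 endothelial and mural members 3 were lower and 1, miR-10a-5p, was at least 5.52-fold higher, detected on no microglia array and not called with normexp. Of 7 choroid plexus and ependyma members 6 were higher and 1 was not called, led by miR-204 (6.89, SE 0.57), which 1 of 3 microglia arrays detected at -5.32 while the other two sat at -8.04. Only 1 of these 7 was detected on all 6 arrays, and with normexp 3 were higher, 1 was lower and 3 were not called. miR-211 was not called at -0.55 (95% interval -2.05 to 0.95), its microglia arrays reading -8.04, -8.04 and -4.89. The 3 muscle members, all detected only on neuron arrays, were higher in neurons, but none was called with normexp. Among them were miR-499 (at least 3.87-fold) and miR-133b (at least 2.90-fold). Of 3 mesenchymal members miR-214 was higher (at least 4.03-fold, but not called with normexp at -0.31), miR-152 lower (-0.88, SE 0.23) and 1 was not called. The erythroid list had miR-451 higher and miR-16 lower, the list of miR-148 and miR-152 had miR-152 lower and miR-148b-3p not called at a difference of 6.697e-04 (95% interval -0.27 to 0.27), and the group of miR-193, miR-365 and miR-22 had 2 of 4 higher, with miR-365 at 1.65 (SE 0.15) and miR-193 not called at -0.28.

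Whether a difference was small depended on the scaling. As reported, the 95% interval of the difference lay within -1 to 1 in log2 for 35 of the 138. Of these 35, all 35 lay within it with the percentile over miRNAs detected on all 6 arrays, 32 with the brightest probe and 30 with normexp. The number was 5 with the percentile over all miRNAs, 15 after quantile normalization, 19 in the deposited table and 0 without scaling. miR-22 had 1.62, 1.32 and 1.35 in neurons and 1.26, 1.46 and 1.44 in microglia, a difference of 0.05 (95% interval -0.16 to 0.26) that became -1.15 with the percentile over all miRNAs and 1.01 without scaling. miR-29b had a difference of 0.12 (95% interval -0.25 to 0.49), with overlapping arrays. The miR-29 list had 2 of 5 members called, both higher (miR-29a by 0.73, SE 0.10, and miR-29c by 0.60, SE 0.08), and the miR-30 list had 2 higher, 1 lower and 2 not called. In the miR-30 list, miR-30c (0.41, SE 0.06), miR-30e (0.29, SE 0.08), miR-30a (-0.22, SE 0.11), miR-30b-5p (-0.24, SE 0.08) and miR-30d (-0.27, SE 0.18) differed by at most 1.33-fold. The sign of both families moved with the scaling. All 5 of each were lower in neurons when the percentile was taken over all miRNAs, and without scaling all 5 of the miR-29 list and 3 of the miR-30 list were higher.

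Set beside the 2 other cell types, neurons had the highest and microglia the lowest mean of the 4 types for 27 of the 138 miRNAs, and microglia the highest and neurons the lowest for 12. These ranks were taken under the reported scaling only, and whether the counts exceed chance was not tested. miR-9 was one of the 27, with a neuron mean of 4.22, a microglia mean of -5.41, and means of 3.49 for astrocytes and 3.21 for oligodendrocytes. miR-223 was one of the 12, with a neuron mean of -6.28, a microglia mean of 2.35, and means of -1.34 for astrocytes and -2.98 for oligodendrocytes.

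The balance of calls depended on how the arrays were scaled. The median difference over all tested miRNAs was 0.58 as reported, -0.38 with the 75th percentile over all 350 miRNAs, -0.23 after quantile normalization, -0.15 in the authors' deposited table and 1.50 without scaling. Among the 138 the split of higher and lower calls was 57 and 59 as reported, 25 and 91 with the percentile over all miRNAs, 35 and 85 after quantile normalization, 36 and 83 in the deposited table, 43 and 68 with normexp, and 71 and 29 without scaling. The directions of 25 higher and 29 lower miRNAs among the 138 were called alike under the reported scaling and the 5 others. let-7d, miR-29a, miR-29c, miR-30c, miR-30e and miR-107 changed sign, and passed the test in the other direction, with the percentile over all miRNAs.

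**Figure D5:**
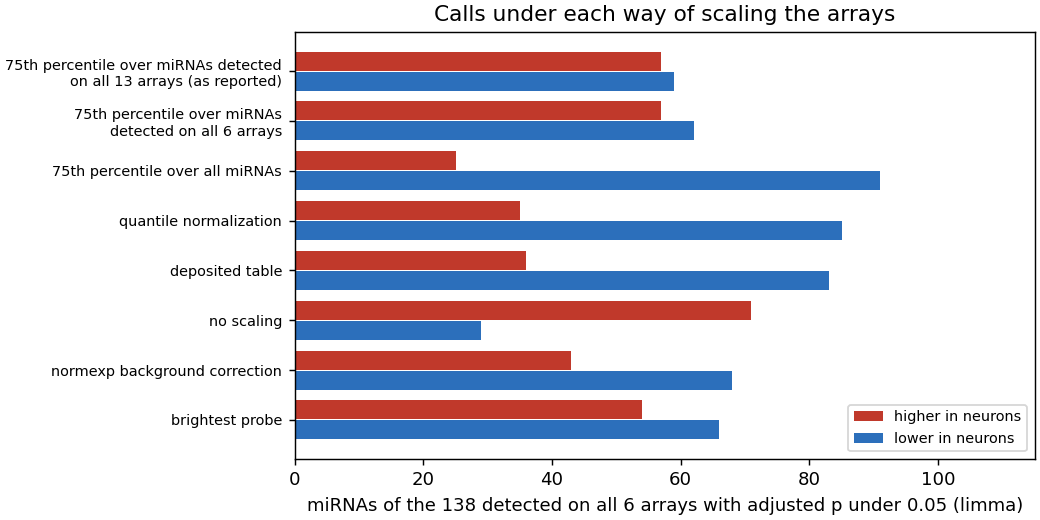
Number of the 138 miRNAs detected on all 6 arrays that were called higher (red) or lower (blue) in neurons under 8 ways of scaling or summarising the arrays. The counts for higher run from 25 to 71 and those for lower from 29 to 91.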

How the data were processed

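The deposited scanner files give background-subtracted spot intensity from Agilent Feature Extraction 9.5.3.1, per the file headers, and a total intensity with a detection call per miRNA. The authors' deposited series table holds log2 values whose column medians were 5.22 to 5.24; its scaling and centring are not stated, and it served as an alternative. The method is not given in the sources used here.

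Spots with outlier flags were dropped, 938 probes were averaged per probe and then per miRNA, divided by the array's 75th percentile, floored at the median of the lowest detected signals and taken to log2. One linear model covered the 13 arrays (limma 3.58.1, lmFit and eBayes, under R 4.3.3), with groups from the sample labels. The number of arrays limits precision, and SEs and p-values rest on a spread within types that was estimated jointly over the 13 arrays. Among miRNAs detected on all 6 arrays the median SD was 0.092 in neurons and 0.22 in microglia. The joint estimate does not allow for this inequality. Alternatives were normexp background correction, other percentiles, quantile normalization, no scaling, the brightest probe, other floors and filters, a replicate block, and leaving out each array.

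Named miRNAs were the 10 highest and 10 lowest differences among those detected on all 6 arrays without overlap, up to 8 per direction detected in one type only, neuron and myeloid list members, the extremes of other lists, the 10 brightest with an interval within -1 to 1, opposite strands and seed relatives, and the 10 brightest per type. miR-188, miR-532-5p, miR-532-3p and some relatives in families were named after their values were seen. The miRNAs, 28 lists and comparisons were chosen with earlier results of these data known. Sequences were matched by name, and 132 of 135 names with a neighbour lay within 3 bases of the spacing expected on the array. The fit and its calls were tested on simulated log2 values, with differences placed only in the brighter miRNAs. Summarising of spots, scaling, background correction and the lower bounds were not tested in this way. Plots were drawn with matplotlib 3.10.9 under Python 3.11.15, with pandas 2.3.3 and numpy 2.4.6 for tables.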

Additional observations from a re-analysis of the deposited data

How the results depend on the processing

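Background correction and scaling moved the counts. Of the 256, 82 were higher with normexp and 43 were lower without scaling. Of the 138, 25 were higher and 91 lower with the percentile over all miRNAs, 35 were higher after quantile normalization and 36 in the deposited table, and 29 were lower without scaling. When only the 138 were tested, the same numbers of them were called, 57 higher and 59 lower. The count of higher miRNAs went from 140 to 57 there because the other 118 were left out. Leaving out 1 array at a time gave 136 to 146 higher and 75 to 83 lower of the 256, and 53 to 59 higher and 57 to 64 lower of the 138. With the replicate number as a block, 135 and 76 of the 256 were called higher and lower, and 53 and 58 of the 138. Arrays with the same number had deviations from their group means that correlated at -0.32, -0.14 and 0.18 over the 138, so the numbers were not taken to pair the samples. The other alternatives kept these counts within 1.5 times. Of 110 named and called miRNAs, 67 kept direction and call under every alternative run.

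Signs turned as follows, and the cause was not tested. With normexp, differences were -0.27 for miR-330*, -0.30 for miR-451, -0.13 for miR-7b, -0.31 for miR-214, -0.25 for miR-499, -0.39 for miR-92b, -0.22 for miR-34c, -0.38 for miR-133b and -0.029 for miR-449a. With the percentile over all miRNAs they were -0.13 for miR-451, -0.79 for miR-30c, -0.47 for miR-29a, -0.97 for miR-107, -0.50 for let-7d, -0.61 for miR-29c, -0.14 for miR-449a, -0.061 for let-7a, -0.38 for let-7f and -0.91 for miR-30e. After quantile normalization they were -0.35 for miR-451, -0.31 for miR-449a, -0.10 for let-7f and -0.0060 for miR-30e, and in the deposited table -0.23, -0.24, -0.11 and -0.0059 for these. Without scaling they were 0.11 for miR-342-3p, 0.25 for miR-342-5p, 0.14 for miR-222, 0.077 for miR-152, 0.29 for miR-26b, 0.72 for miR-103, 0.72 for miR-30b-5p and 0.19 for miR-23b, and with the brightest probe -0.0032 for miR-107. Leaving out neuron array 1 or microglia array 3 brought miR-212 to a call, and likewise neuron array 1 for miR-30a, microglia array 1 for miR-322* and microglia array 2 for miR-148b-3p. Signals near background limit the dim miRNAs, and bounds for those detected in one type rest on the lowest detected signal.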
